A study of Arabidopsis thaliana with 8 samples.

Results

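Subtilases and serine carboxypeptidase-like (SCPL) proteins were followed across 3 sorted cell populations of the Arabidopsis thaliana root. The genes were taken by name: every probe set with a single gene whose symbol in the array annotation starts with SBT or SCPL, in capitals or not. This gave 37 probe sets for 37 genes, 8 subtilases and 29 SCPL genes, among 22746 probe sets tested. The rule uses symbols only. Probe sets that name several genes were left out, among them 2 with an SCPL symbol.

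The arrays came from differentiating xylem (n = 3), phloem sieve cells with companion cells (n = 2) and cortex (n = 3). All plants were seedlings of wild type Columbia background, aged 6 days and grown at 22 degrees Celsius. Root tips of about 1 cm were digested to protoplasts. Each population was collected on a cell sorter by the green fluorescent protein of a marker line, so the sorted plants carried that marker. The labels used here do not name the promoter of any line. Effects of a line cannot be told apart from those of its population. All 3 populations therefore went through wall digestion and sorting, and no array of undigested root is part of the comparison. The stated aim was a root expression map without overlap between cell types.

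Both families are serine hydrolases with a catalytic triad. Plant subtilases are mostly secreted, are made with a prodomain that is removed on the way out of the cell, and are known for cutting precursors of peptide signals and wall enzymes such as pectin methylesterases. SCPL proteins share the fold of carboxypeptidases that trim residues from the C-terminal end of peptides. Some relatives act as acyltransferases in the synthesis of sinapate esters, so the name alone does not give the reaction.

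The genes listed as markers of each population had their highest sums in it. The lists were chosen with earlier results of these data known, so these sums describe the arrays and cannot test the identity of the populations. The 4 measured xylem markers of 9 listed summed to 15127 to 17339 intensity units on xylem arrays, 226 to 257 on phloem arrays and 322 to 558 on cortex arrays. The 5 measured phloem markers of 8 summed to 130 to 175 in xylem, 3718 to 4298 in phloem and 279.9 to 339 in cortex, with OPS under 16 on every array. The 5 cortex markers summed to 39.4 to 70.8 in xylem, 143 to 154 in phloem and 3848 to 4852 in cortex, with AT1G62500 at 34.8 or less on every array. The 2 measured root hair markers of 3, EXPA7 and EXPA18, mark a type outside the 3 sorted ones and summed to 18.1 to 53.0 in xylem, 270.2 to 399.8 in phloem and 94.2 to 133 in cortex. The 2 measured endodermis markers of 4, GSO1 and AT1G61590, summed to 90.0 to 97.1 in xylem, 268 to 302 in phloem and 465 to 735 in cortex. GSO1 was enriched in cortex, with means of 81.5 in xylem, 132 in phloem and 499 in cortex, while AT1G61590 was highest in phloem, with means of 12.8, 153 and 88.0 in the same order. The 1 measured pericycle marker of 2, AT5G09760, read 181 to 202 in xylem, 309.7 to 515 in phloem and 305 to 336 in cortex. Median intensity was 41.2 to 42.7 in xylem, 70.3 to 73.6 in phloem and 61.4 to 62.4 in cortex. The 3'/5' ratio of the GAPDH control probe sets, which rises when RNA is degraded or amplified mainly from its 3' end, was 4.89 to 9.74 in xylem, 5.91 to 8.79 in phloem and 1.98 to 2.60 in cortex. The actin ratio overlapped among the populations, at 12.5 to 32.9 in xylem, 21.3 to 23.1 in phloem and 18.2 to 24.6 in cortex. The part of these differences in the results below was not tested.

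The values below are the deposited linear intensities, 1 per array. Fold changes are limma estimates on the log2(intensity + 16) scale with their standard error (SE), and p-values are adjusted over all 22746 probe sets within a pair of populations, with a threshold of 0.05. An intensity near or below 16 was not shown to exceed background, since no detection calls were used, and the added 16 makes fold changes of dim genes smaller. Enrichment in a population means an adjusted p under the threshold and an at least 2-fold higher value there against each of the other populations. In sorted bulk RNA, fewer cells that express a gene and less of its RNA per cell cannot be told apart.

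Each of the 3 populations had members of these families that were enriched in it. Of the 37 genes, 13 were enriched in a population (18.0% of all tested probe sets), 5 in xylem (5.57% of all), 4 in phloem (6.1%) and 4 in cortex (6.31%). The xylem genes were the subtilase SBTI1.1 and the SCPL genes scpl20, scpl48, SCPL45 and SCPL49. The phloem genes were the subtilases SBT4.12 and SBT3.12 and the SCPL genes scpl28 and scpl31. All 4 cortex genes, SCPL27, SCPL34, scpl26 and scpl40, were SCPL genes. The F test across the 3 populations passed for 20 of the 37, against 52.9% of all probe sets, so the share that varied at all was near the background.

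**Figure D1:**
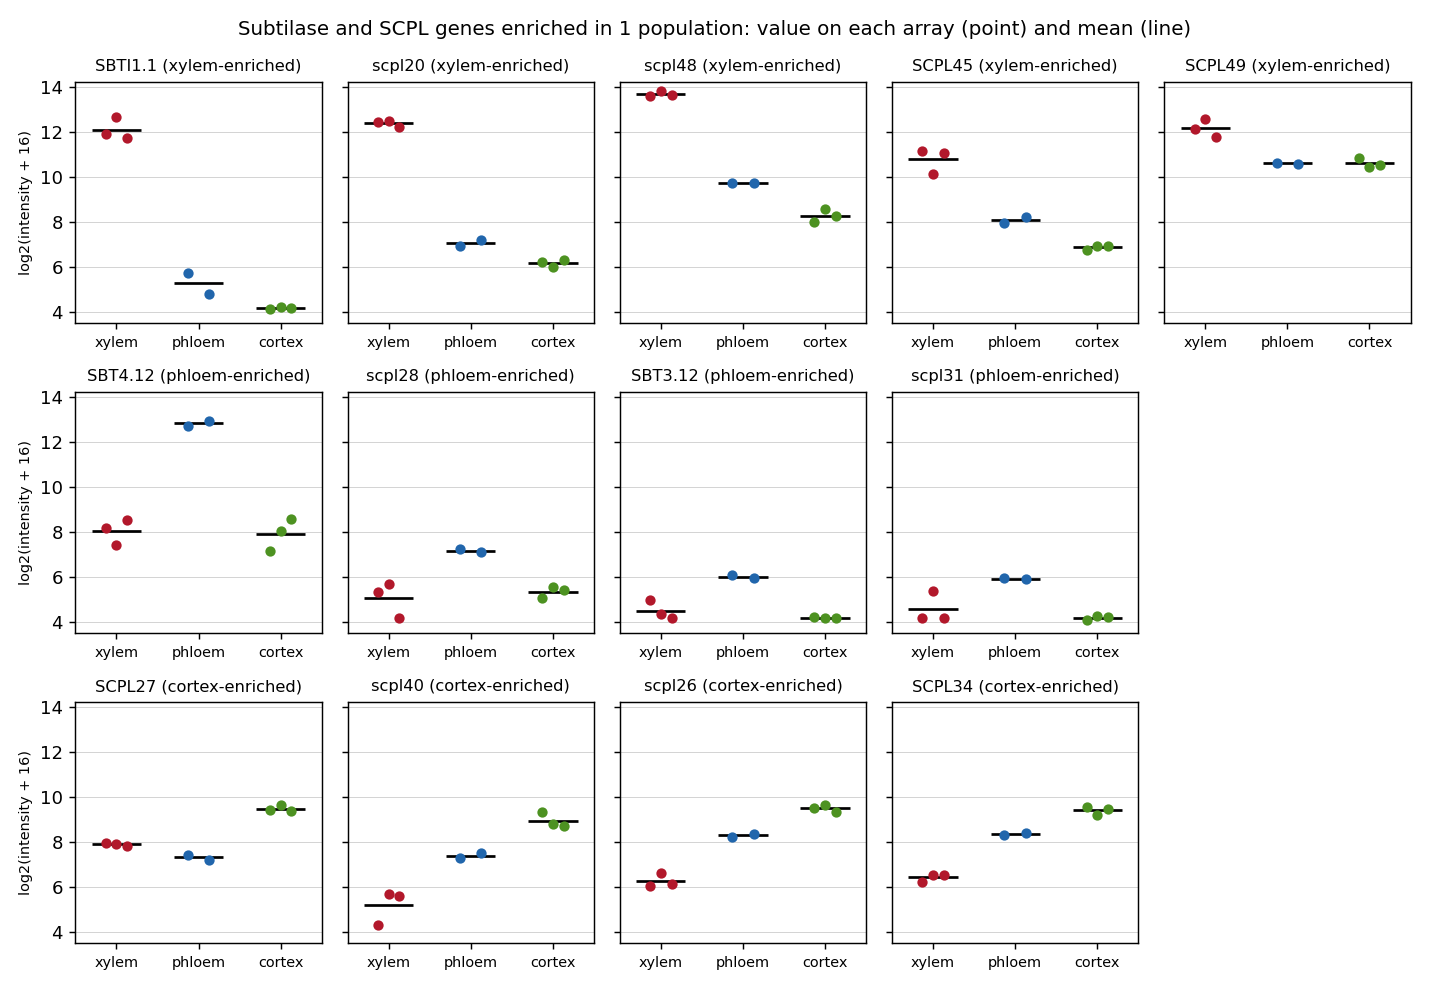
Value on each array, log2(intensity + 16), for the 13 genes enriched in xylem (top row), phloem (middle row) or cortex (bottom row), with 3 xylem, 2 phloem and 3 cortex arrays as points and the population mean as a line. SBTI1.1 and scpl20 in xylem and SBT4.12 in phloem stand furthest above the next highest population, by 6.82, 5.32 and 4.78 on this scale, while SCPL34 and scpl26 step up through phloem to cortex.

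SBTI1.1 (AT1G01900), which processes a precursor of the growth peptide phytosulfokine, read 3803, 6461 and 3356 on the xylem arrays, 37.8 and 11.9 on the phloem arrays and 1.31, 2.56 and 1.87 on the cortex arrays. Every xylem array lay far above all others, and the cortex arrays and 1 phloem array lay under 16. On the log2 scale its xylem minus cortex value was 7.93 (SE 0.30, adjusted p = 2.09e-07), or 10.57 with an added 1 in place of 16. Against phloem it was higher in xylem by 6.82 (SE 0.34, adjusted p = 1.47e-06). It was also called higher in phloem than in cortex by 1.11 (SE 0.34, adjusted p = 0.0402), but at levels near 16 this call was lost under 10 alternatives. Leaving out phloem replicate 1 gave 0.64 (adjusted p = 0.296), and leaving out xylem replicate 1 or cortex replicate 1, 2 or 3 gave adjusted p = 0.0599, 0.0913, 0.0885 and 0.0843.

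Among the other subtilases, 2 were phloem genes. SBT4.12 (AT5G59090), one of the proteases that cut the precursor of the abscission peptide IDA, read 269.6, 156 and 347 on xylem arrays, 6656 and 7731 on phloem arrays and 127, 243 and 363 on cortex arrays. The phloem arrays stood above all others, and xylem and cortex overlapped. SBT4.12 was higher in phloem than in cortex by 4.90 (SE 0.42, adjusted p = 5.74e-05), and its xylem minus phloem value was -4.78 (SE 0.42, adjusted p = 3.44e-05). Xylem and cortex differed by 0.11 (SE 0.37, adjusted p = 0.849). Its level outside phloem was not at the floor of the arrays, with means of 257 ± 96.0 in xylem and 244 ± 118 in cortex (SD, n = 3 each). SBT3.12 (AT4G21326) read 15.5, 4.10 and 1.94 in xylem, 50.6 and 45.8 in phloem and 2.62, 2.03 and 1.74 in cortex. Only the phloem arrays lay above 16. SBT3.12 was higher in phloem than in cortex by 1.82 (SE 0.23, adjusted p = 0.000507), with a xylem minus phloem value of -1.51 (SE 0.23, adjusted p = 0.000786). With an added 1 these values were 3.98 and -2.97. With an added 64 they were 0.76 and -0.66, still called but under 2-fold, and after median centring the xylem minus phloem value was -0.90.

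The remaining 5 subtilases passed in no pair of populations. SBT1.3 (AT5G51750) was the steadiest, at 34.8 ± 5.30 in xylem (n = 3), 40.8 ± 3.14 in phloem (n = 2) and 36.1 ± 2.92 in cortex (SD, n = 3). SBT5.4 (AT5G59810), known for a shoot meristem phenotype when overproduced, had means of 29.0, 23.3 and 20.2 in xylem, phloem and cortex. SBT3.5 (AT1G32940), which acts on a pectin methylesterase, spread widely within populations, from 10.6 to 53.1 in xylem, 6.24 to 22.7 in phloem and 7.97 to 28.7 in cortex. SBT4.13 (AT5G59120), which also cuts the IDA precursor, read between 2.61 and 24.9 on all arrays. SBT3.3 (AT1G32960), known from immune priming, read from 0.833 to 4.66 on all arrays. At such intensities a difference may be below what the arrays can show.

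Of the carboxypeptidase-like genes 4 were enriched in xylem. The SCPL gene scpl48 (AT3G45010) read 12228, 14387 and 12843 in xylem, 837 and 839.9 in phloem and 238, 369 and 293 in cortex. The 3 populations did not overlap, and the order was xylem, phloem, cortex. The xylem mean was 43.8 times that of cortex and 15.7 times that of phloem. On the log2 scale its xylem signal exceeded cortex by 5.40 (SE 0.18, adjusted p = 1.06e-07) and phloem by 3.94 (SE 0.20, adjusted p = 1.55e-06). It was also higher in phloem than in cortex, by 1.45 (SE 0.20, adjusted p = 0.000818).

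A narrower xylem pattern was seen in scpl20 (AT4G12910), with 5595, 5685 and 4706 in xylem, 104 and 132 in phloem and 57.3, 48.2 and 64.4 in cortex. Again no arrays overlapped, and phloem and cortex were close to each other in relation to xylem. The xylem mean was 94.1 times that of cortex and 45.2 times that of phloem, with log2 values of 6.20 (SE 0.16, adjusted p = 3.73e-08) and 5.32 (SE 0.18, adjusted p = 2.8e-07). Between phloem and cortex scpl20 was called higher in phloem by 0.88 (SE 0.18, adjusted p = 0.00674). That call was lost without phloem replicate 2 (0.73, adjusted p = 0.071) and under spike-in scaling (0.38, adjusted p = 0.133).

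SCPL45 (AT1G28110) ran in the same order, with 2225, 1106 and 2134 in xylem, 229 and 286 in phloem and 93.3, 106 and 107 in cortex. Xylem replicate 2 was the low array of its population and still stood above all phloem and cortex arrays. SCPL45 was higher in xylem by 3.89 (SE 0.26, adjusted p = 4.83e-06) against cortex and by 2.69 (SE 0.29, adjusted p = 0.000118) against phloem. Its phloem minus cortex value of 1.20 (SE 0.29, adjusted p = 0.0151) did not pass without phloem replicate 1 (1.36, adjusted p = 0.0519), without phloem replicate 2 (1.05, adjusted p = 0.123) or under spike-in scaling (0.65, adjusted p = 0.0884).

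SCPL49 (AT3G10410), listed as a carboxypeptidase Y, the kind of enzyme known as a vacuolar peptidase in yeast, was measured well above 16 on every array. It read 4440.4, 6081 and 3466 in xylem, 1563 and 1500.4 in phloem and 1799.7, 1393 and 1439 in cortex. The xylem arrays stood above the rest, and phloem and cortex overlapped. Xylem exceeded cortex by 1.56 (SE 0.22, adjusted p = 0.000448) and phloem by 1.56 (SE 0.25, adjusted p = 0.000973). The xylem minus cortex value fell to 0.59 under spike-in scaling (adjusted p = 0.0456), short of the 2-fold bound. Among genes not enriched by the rule, scpl29 (AT4G30810) read 1478, 859.7 and 1605 in xylem, 429 and 474 in phloem and 638, 681 and 676 in cortex. It was higher in xylem than in phloem by 1.46 (SE 0.25, adjusted p = 0.00168) and than in cortex by 0.92 (SE 0.23, adjusted p = 0.0102), a value that turned to -0.04 under spike-in scaling. In scpl35 (AT5G08260) both vascular populations stood above cortex, with 165, 101 and 183 in xylem, 75.4 and 93.8 in phloem and 26.4, 14.7 and 34.0 in cortex. It was higher than in cortex by 2.01 in xylem (SE 0.27, adjusted p = 0.00036) and by 1.32 in phloem (SE 0.31, adjusted p = 0.012). Without phloem replicate 2 its phloem minus cortex value was 1.18 (adjusted p = 0.102), and xylem and phloem differed by 0.69 (SE 0.31, adjusted p = 0.105).

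The 4 cortex genes had a shared order in 3 cases. SCPL34 (AT5G23210) read 58.3, 75.0 and 76.8 in xylem, 299 and 318 in phloem and 723, 558 and 686 in cortex. In scpl26 (AT2G35780) the arrays read 48.2, 82.0 and 53.1 in xylem, 277 and 310.4 in phloem and 702, 775 and 627 in cortex. In both genes the populations were fully separated, with phloem between xylem and cortex. SCPL34 had a xylem minus cortex value of -2.96 (SE 0.17, adjusted p = 1.69e-06) and a phloem minus cortex value of -1.04 (SE 0.19, adjusted p = 0.00337), so it only just met the 2-fold bound. It missed that bound, though still called, without cortex replicate 1 (-0.97) or phloem replicate 1 (-0.999), with an added 64 (-0.94), after quantile (-0.95) or trimmed-mean scaling (-0.92) and with the replicate block (-0.99). The phloem minus cortex value of scpl26 was -1.21 (SE 0.22, adjusted p = 0.00348), and it lay between -1.81 and -1.08 under the 18 alternatives run. The xylem minus cortex value of scpl26 was -3.24 (SE 0.19, adjusted p = 2.39e-06).

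The same order held for scpl40 (AT3G63470), with 3.90, 35.7 and 31.3 in xylem, 138 and 161 in phloem and 621, 419.5 and 402 in cortex. Its xylem minus cortex value of -3.74 (SE 0.36, adjusted p = 4.29e-05) was the lowest of all 37 genes in that pair. The phloem minus cortex value of -1.56 (SE 0.40, adjusted p = 0.0194) lost its call without phloem replicate 1 (-1.46, adjusted p = 0.118), phloem replicate 2 (-1.66, adjusted p = 0.0887) or cortex replicate 1 (-1.37, adjusted p = 0.0636), and with an added 1 (-1.65, adjusted p = 0.153). SCPL27 (AT3G07990) had the other order, with phloem lowest: 230.4, 219 and 210.05 in xylem, 152 and 130.2 in phloem and 664, 765 and 636 in cortex. No arrays overlapped. SCPL27 was lower than in cortex by -1.57 in xylem (SE 0.15, adjusted p = 3.33e-05) and by -2.16 in phloem (SE 0.16, adjusted p = 2.64e-05). Xylem stood above phloem by 0.59 (SE 0.16, adjusted p = 0.0175), a call lost without phloem replicate 2 (0.49, adjusted p = 0.121), under spike-in scaling (0.26, adjusted p = 0.288) and with xylem and phloem fitted alone (adjusted p = 0.0536).

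Of the SCPL genes, scpl28 and scpl31 were enriched in phloem. In scpl28 (AT2G35770) the arrays read 24.0, 35.0 and 1.84 in xylem, 133 and 122 in phloem and 17.3, 30.5 and 26.6 in cortex. In scpl31 (AT1G11080) they read 1.80, 25.3 and 2.04 in xylem, 45.3 and 44.0 in phloem and 1.08, 2.96 and 2.57 in cortex. Both phloem arrays stood above all others in each gene, and 1 xylem array set the spread: replicate 3 was low in scpl28 and replicate 2 was high in scpl31. The log2 values of scpl28 were 1.83 for phloem minus cortex (SE 0.41, adjusted p = 0.01001) and -2.11 for xylem minus phloem (SE 0.41, adjusted p = 0.00292). Those of scpl31 were 1.74 (SE 0.33, adjusted p = 0.00477) and -1.36 (SE 0.33, adjusted p = 0.01002). With 1 phloem array left, the phloem minus cortex call of scpl28 was lost at values of 1.77 and 1.88 (adjusted p = 0.0683 without replicate 1 and 0.0621 without replicate 2). So was the xylem minus phloem call of scpl31, at -1.34 and -1.37 (adjusted p = 0.0576 and 0.0551). An added 1 also ended the scpl28 call (2.35, adjusted p = 0.105), and quantile normalization and median centring ended that of scpl31 (-1.04 and -0.75, adjusted p = 0.0539 and 0.0839). The root hair markers were also highest on these phloem arrays, as given above, and their part in the 4 phloem genes was not tested.

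Several SCPL genes stood highest in phloem without meeting the rule for enrichment. SCPL43 (AT2G12480) was fully ordered, at 43.6, 42.1 and 35.9 in xylem, 89.0 and 82.7 in phloem and 16.9, 22.4 and 18.3 in cortex. It was higher in phloem than in cortex by 1.54 (SE 0.20, adjusted p = 0.00054) and xylem exceeded cortex by 0.68 (SE 0.17, adjusted p = 0.0117), and its xylem minus phloem value of -0.85 (SE 0.20, adjusted p = 0.00719) fell short of 2-fold. The xylem calls of SCPL43 did not hold under all scalings: spike-in scaling gave 0.071 against cortex (adjusted p = 0.75), and median centring gave -0.24 for xylem minus phloem (adjusted p = 0.322). For scpl50 (AT1G15000), at 18.7, 21.1 and 17.5 in xylem, 51.8 and 108 in phloem and 34.0, 22.1 and 36.2 in cortex, the phloem arrays again lay highest. Its xylem minus phloem value was -1.39 (SE 0.29, adjusted p = 0.00406). Its phloem minus cortex value of 0.99 (SE 0.29, adjusted p = 0.0323) was lost without phloem replicate 2 (0.55, adjusted p = 0.254), cortex replicate 1 (1.04, adjusted p = 0.0606) or cortex replicate 2 (0.85, adjusted p = 0.107). It was also lost with an added 1, after quantile, median or spike-in scaling, with the replicate block and with the 2 populations fitted alone (0.54 to 1.29, adjusted p = 0.0536 to 0.146).

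In scpl16 (AT3G12220) intensities were 11.7, 7.59 and 1.18 in xylem, 22.7 and 11.5 in phloem and 1.03, 0.383 and 1.37 in cortex. Nearly all of these lie under 16, so its call of 0.95 for phloem minus cortex (SE 0.22, adjusted p = 0.0114) rests on 1 phloem array above it, and without phloem replicate 1 it came to 0.70 (adjusted p = 0.096). Phloem and xylem arrays overlapped in scpl16. For scpl25 the arrays read 38.1, 6.32 and 29.5 in xylem, 73.6 and 94.4 in phloem and 46.7, 24.9 and 38.3 in cortex. For scpl18 the arrays read 11.8, 9.05 and 13.5 in xylem, 26.5 and 36.5 in phloem and 8.99, 24.8 and 7.33 in cortex. For scpl44 the arrays read 24.9, 22.7 and 23.2 in xylem, 38.1 and 45.0 in phloem and 34.6, 29.2 and 29.7 in cortex. In scpl25, scpl18 and scpl44 both phloem arrays lay above all xylem and cortex arrays. The genes scpl25, scpl18 and scpl44 were lower in xylem than in phloem at -1.39, -0.79 and -0.54 (adjusted p = 0.0169, 0.0353 and 0.0434), and none of them passed in the other pairs. These calls were weak: that of scpl25 was lost without phloem replicate 1 or 2 (adjusted p = 0.0571 and 0.113), that of scpl18 without any xylem or phloem array (adjusted p = 0.054 to 0.196), and that of scpl44 without any single array (adjusted p = 0.0591 to 0.206), and the sign of scpl44 turned under median centring (0.07). By contrast scpl42 (AT5G42240) was low in xylem only, at 19.4, 15.5 and 20.7 against 79.7 and 50.6 in phloem and 74.8, 99.0 and 111 in cortex. Phloem and cortex overlapped in scpl42, and xylem differed from cortex by -1.68 (SE 0.22, adjusted p = 0.000308) and from phloem by -1.21 (SE 0.25, adjusted p = 0.00396), the second not passing after median centring (-0.61, adjusted p = 0.0583).

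The other 10 SCPL genes, scpl21, scpl22, scpl23, scpl30, SCPL32, scpl33, scpl38, scpl41, scpl46 and scpl47, passed in no pair. Together with the 5 subtilases above, these 15 genes had no population mean above 41.5 and no array above 54.6. Their log2 fold changes ran from -0.19 to 0.51 for xylem minus cortex, from -0.20 to 0.45 for phloem minus cortex and from -0.45 to 0.66 for xylem minus phloem.

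**Figure D2:**
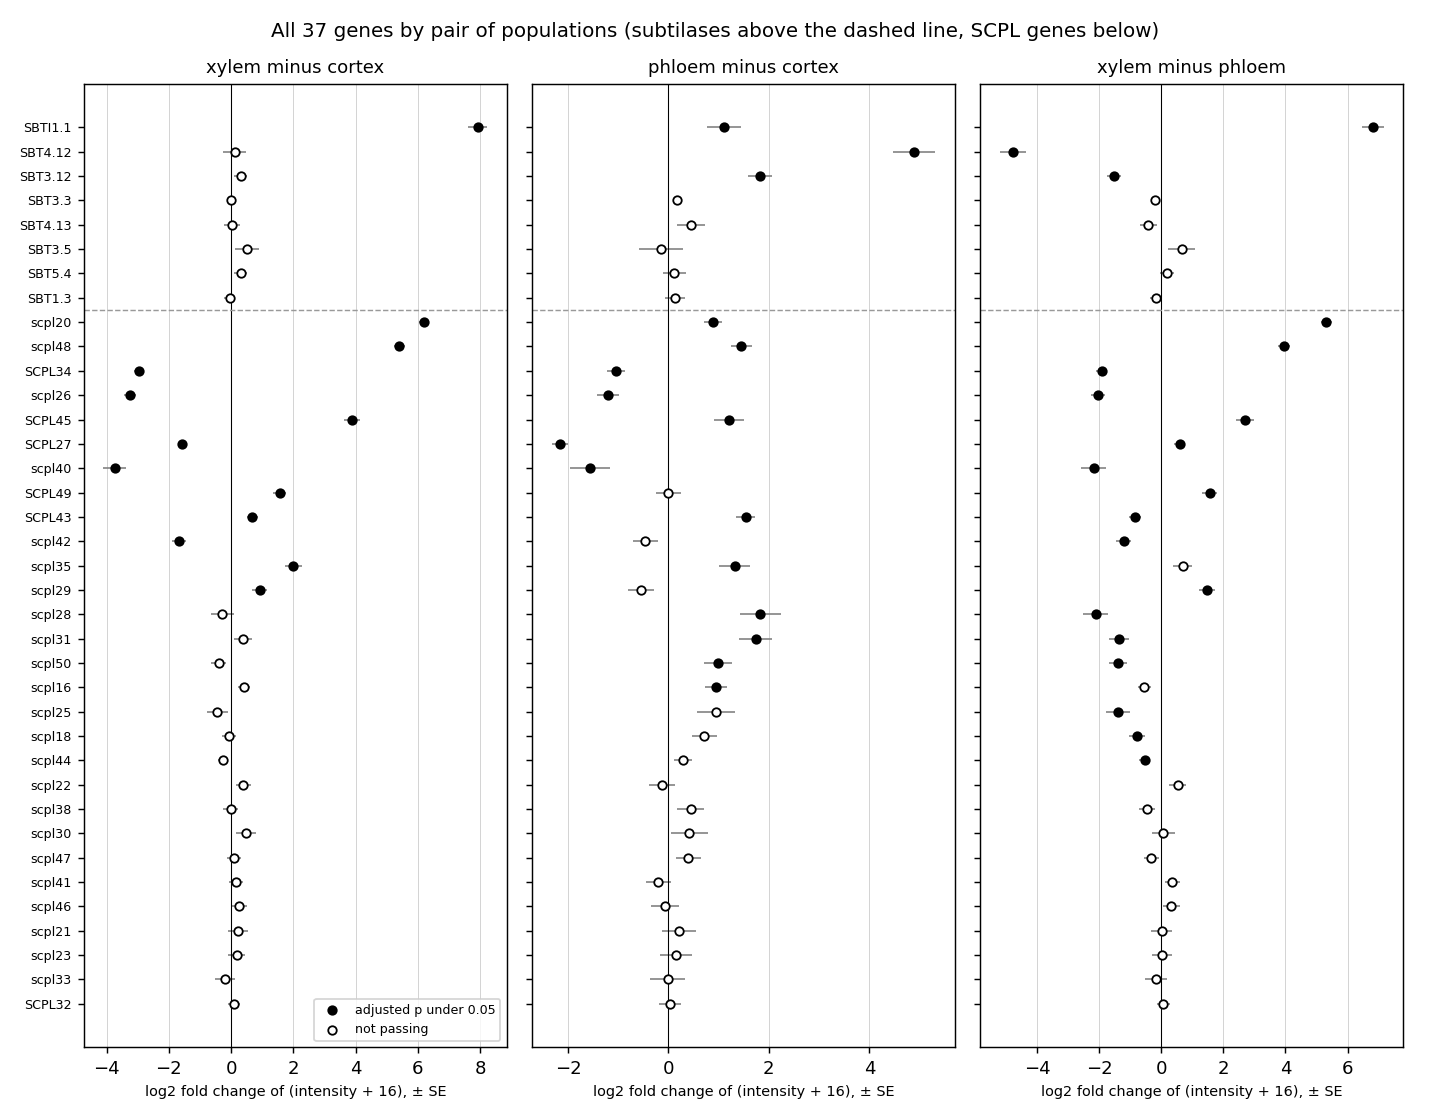
Log2 fold change of (intensity + 16) with its SE for all 37 genes in each pair of populations, with filled points for adjusted p under 0.05 and open points for values that did not pass. SBTI1.1, scpl20, scpl48 and SCPL45 lie furthest to the right against cortex and against phloem, and SBT4.12 is the outlying phloem gene. The 5 subtilases called in no pair lie between -0.42 (SBT4.13) and 0.66 (SBT3.5, SE 0.44), both for xylem minus phloem.

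Counted by pair, 8 of the 37 genes were higher in xylem than in cortex (13.5% of all tested probe sets) and 5 were lower (29.1%). The median log2 fold change of the 37 was 0.16, against -0.14 over all probe sets. SBTI1.1, scpl20, scpl48 and SCPL45 made up the upper end, followed by scpl35, SCPL49, scpl29 and SCPL43, and all 5 lower genes (scpl40, scpl26, SCPL34, scpl42 and SCPL27) were SCPL genes. After median centring 18 of the 37 were called higher (34.6% of all probe sets), and after spike-in scaling 6 were higher (6.22%) and 11 lower (57.3%), so the calls of the whole array moved with the scaling too.

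Between phloem and cortex 12 genes were higher in phloem (12.2% of all probe sets) and 4 were lower (14.8%). The 12 were 3 subtilases and 9 SCPL genes, led by SBT4.12, scpl28, SBT3.12 and scpl31, and the 4 were the cortex genes SCPL27, scpl40, scpl26 and SCPL34. The median was 0.29, against -0.03 over all probe sets. In fits without 1 phloem array, the array left was assumed to spread as the other 2 populations do. With only probe sets brighter than the median, 12 of the 37 genes were tested, and 6 of these 12 were higher in phloem. The share of all bright probe sets called is not given here.

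Between xylem and phloem 7 genes were higher in xylem (13.9% of all probe sets) and 13 were lower (28.5%). The 7 were SBTI1.1, scpl20, scpl48, SCPL45, SCPL49, scpl29 and SCPL27, and the 13 included SBT4.12, SBT3.12 and 11 SCPL genes. The median was -0.18, close to the -0.15 of all probe sets, and after median centring the counts were 15 higher (40.9% of all probe sets) and 7 lower (16.5%). Counted by arrays alone, 8 genes had every xylem array above every cortex array (17.5% of all probe sets) and 7 had every one below (34.7%). For phloem against cortex 17 lay wholly above (25.9%) and 7 wholly below (30.5%). For xylem against phloem 9 lay wholly above (21.4%) and 14 wholly below (38.8%). The 3 pairs share arrays, so their counts are not independent. In all, 22 of the 37 genes passed in at least 1 pair, against 57.1% of all probe sets, and 9 passed in all 3 pairs, against 10.6%.

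**Figure D3:**
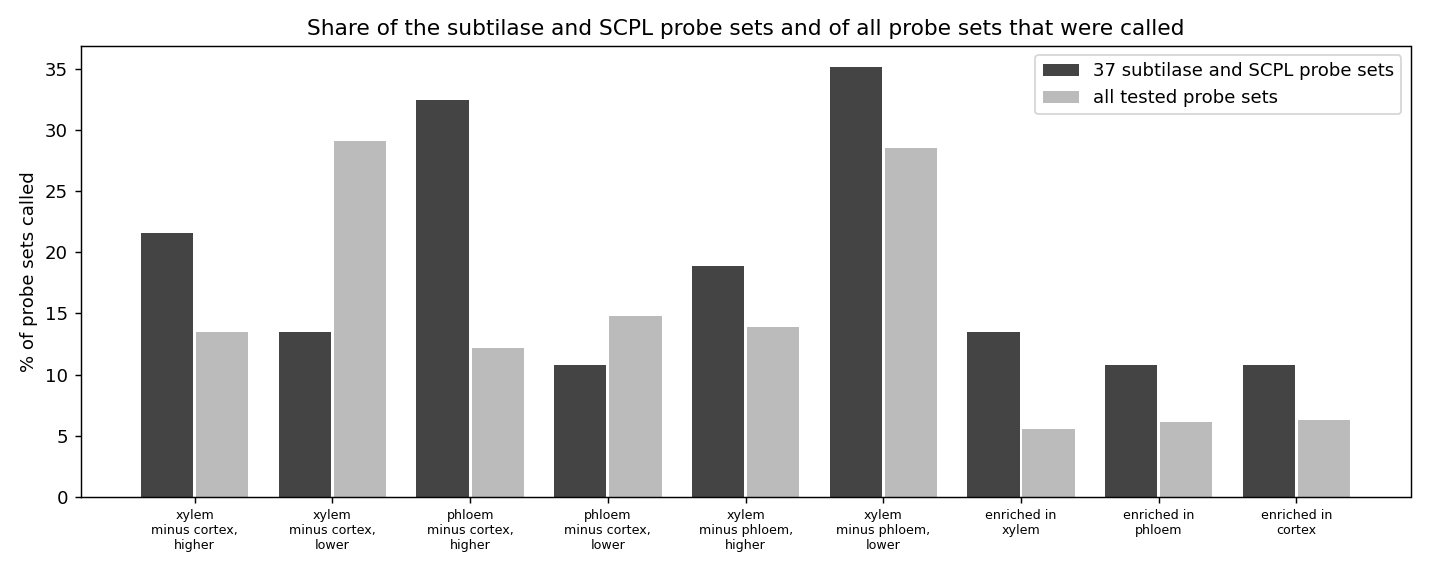
Percentage of the 37 subtilase and SCPL probe sets (dark bars) and of all 22746 tested probe sets (light bars) called higher or lower in each pair of populations or enriched in 1 population. The 37 lie above the whole array for higher in phloem than in cortex (32.4% against 12.2%) and below it for lower in xylem than in cortex (13.5% against 29.1%), and no test of these differences was made.

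Some of the genes lie beside each other in the genome, by their order in the RefSeq annotation of assembly TAIR10.1. The genes scpl28 and scpl26 are direct neighbours on chromosome 2 and had different patterns: scpl28 had its highest arrays in phloem and scpl26 in cortex. On chromosome 5, SBT4.12 and SBT4.13 have 3 protein-coding genes between them, and SBT4.12 was enriched in phloem while SBT4.13 passed in no pair of populations. The chromosome 5 genes scpl41 and scpl42 have 2 between them, with scpl41 at 20.04 or less on every array and scpl42 lower in xylem than in the other populations. The pairs SBT3.5 and SBT3.3 on chromosome 1 (1 gene between) and scpl22 and scpl23 on chromosome 2 (none between) did not pass in any pair of populations. Levels are compared here within a probe set only, since probe sets differ in how strongly they bind their transcripts.

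**Figure D4:**
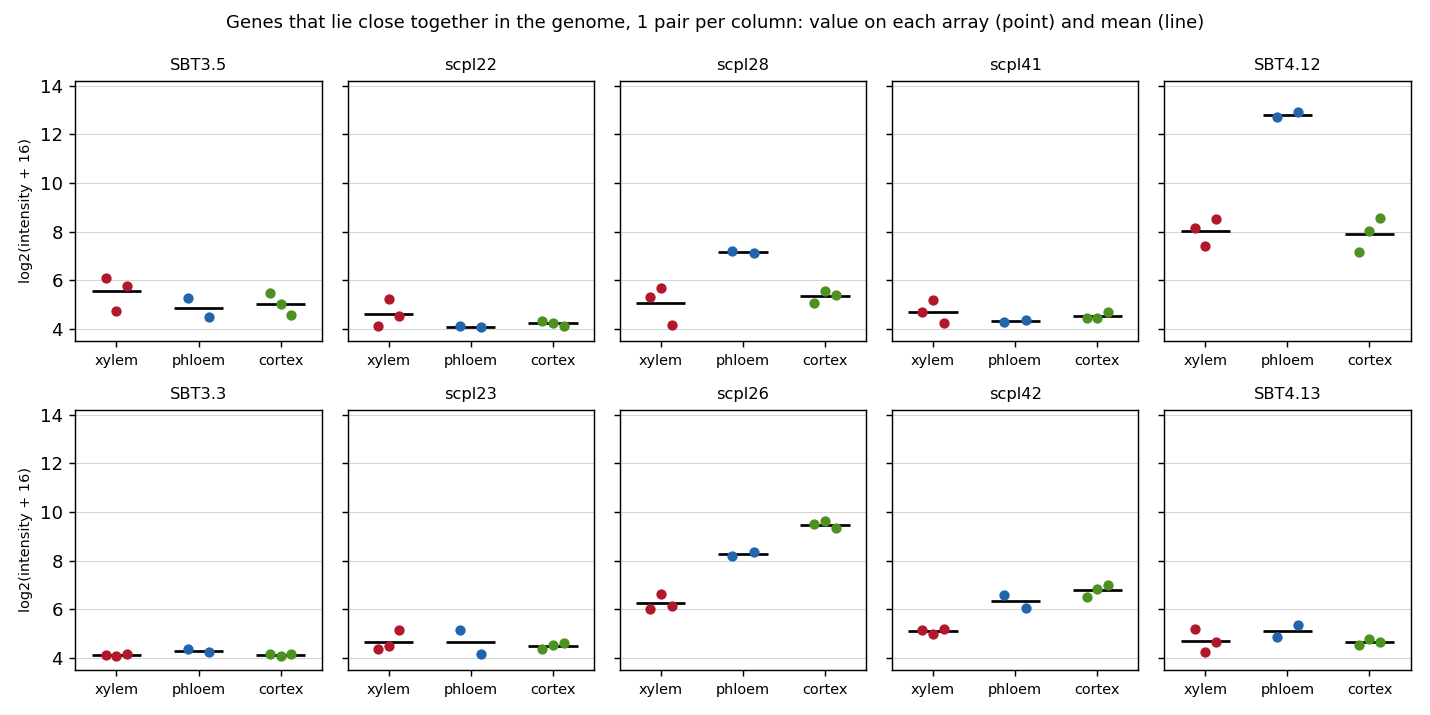
Value on each array, log2(intensity + 16), for 5 pairs of genes that lie close together in the genome, 1 pair per column, with 3 xylem, 2 phloem and 3 cortex arrays and the population mean as a line. In the scpl28 and scpl26 pair the highest population is phloem for the one and cortex for the other, and of SBT4.12 and SBT4.13 only SBT4.12 was called, highest in phloem.

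Further subtilases with other names were read from a list of loci written for this work, since the annotation does not give family membership. ATSBT5.2 (AT1G20160), which in Arabidopsis cuts the stomatal peptide EPF2 and, like SBT4.12 and SBT4.13, the IDA precursor, was a phloem gene too. It read 26.7, 68.1 and 62.7 in xylem, 161 and 278 in phloem and 23.2, 27.2 and 36.2 in cortex, with a phloem minus cortex value of 2.36 (SE 0.35, adjusted p = 0.00129) and a xylem minus phloem value of -1.80 (SE 0.35, adjusted p = 0.00311). ARA12 (AT5G67360), which acts in seed coat mucilage release, was highest in cortex, at 719.9, 425 and 568 in xylem, 466 and 328 in phloem and 1332, 1229 and 1246 in cortex. Its xylem minus cortex value was -1.16 (SE 0.21, adjusted p = 0.00209) and its phloem minus cortex value -1.66 (SE 0.24, adjusted p = 0.00109). TPP2 (AT4G20850), a cytosolic tripeptidyl peptidase of the same fold, was also highest in cortex, with 442, 421 and 446 in xylem, 926 and 907 in phloem and 1298, 1429 and 1429 in cortex. Its values were -1.63 for xylem minus cortex (SE 0.13, adjusted p = 1.18e-05) and -0.59 for phloem minus cortex (SE 0.14, adjusted p = 0.0147), the second short of 2-fold. S1P (AT5G19660), a Golgi protease that releases membrane-bound transcription factors, differed least of these, with a xylem minus cortex value of -0.54 (SE 0.19, adjusted p = 0.0486) and no call in the other pairs. The annotation names only these 4 of the 38 measured loci of that list. In xylem against cortex 5 of the 38 were higher (13.5% of all probe sets) and 5 lower (29.1%). In phloem against cortex 6 were higher (12.2%) and 4 lower (14.8%). In xylem against phloem 2 were higher (13.9%) and 7 lower (28.5%). By the rule for enrichment 1 of the 38 was a xylem gene (5.57% of all), 2 were phloem genes (6.1%) and 2 were cortex genes (6.31%). The xylem gene, AT4G30020, was higher than in cortex by 3.18 (SE 0.28, adjusted p = 2.63e-05) and than in phloem by 1.79 (SE 0.32, adjusted p = 0.0018). Besides ATSBT5.2 and ARA12, AT5G44530 was enriched in phloem and AT3G14067 in cortex. A list of 51 SCPL loci was written in the same way, and none beyond the 29 had a probe set of its own in the annotation used. SCPL genes missing from that list would not have been found. The annotation does not list 8730 of the 22746 tested probe sets, so further genes of both families may be measured without being named here.

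Other peptidases and possible substrates were read in the same way. Of 13 measured peptidase probe sets outside both families, 2 were enriched in xylem (5.57% of all probe sets), 1 in phloem (6.1%) and 2 in cortex (6.31%). By pair, 3 were higher (13.5% of all) and 3 lower (29.1%) in xylem than in cortex. In phloem against cortex 2 were higher (12.2%) and 4 lower (14.8%), and in xylem against phloem 4 were higher (13.9%) and 4 lower (28.5%). The 13 include the vacuolar processing enzymes ALPHA-VPE in xylem (4.72 against cortex, SE 0.26, adjusted p = 1.38e-06) and BETA-VPE in phloem (2.14 against cortex, SE 0.23, adjusted p = 0.000205), and the aspartic protease NANA in cortex (-5.59 for xylem minus cortex, SE 0.29, adjusted p = 1.11e-06). The other xylem gene of the 13, AT4G04460, was higher than in cortex by 7.49 (SE 0.18, adjusted p = 3.48e-08). For the other cortex gene, AT4G16190, the xylem minus cortex value was -4.87 (SE 0.40, adjusted p = 1.56e-05). Of 7 measured peptide precursor genes of 24 listed, 3 were enriched in phloem (6.1% of all probe sets). Among these were CLE26 and CLE41, the second also on the list of phloem markers. CLE41 and CLE26 had phloem minus cortex values of 2.84 (SE 0.21) and 5.27 (SE 0.34). In all, 1 precursor was higher (13.5% of all probe sets) and 1 lower (29.1%) in xylem than in cortex. Another 2 counts were 3 higher in phloem than in cortex (12.2%) and 3 lower in xylem than in phloem (28.5%). The precursor RALFL33 had means of 1254, 1124 and 1279 in xylem, phloem and cortex and differed by at most 0.16 in size, with no pair passing. The phytosulfokine and IDA precursors that the subtilases above are known to cut were not analysed here.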

How the data were processed

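Per the labels' protocols, RNA from protoplasts sorted by green fluorescence was amplified in 2 cycles, labelled with biotin and hybridised to Affymetrix arrays. The authors deposited 1 linear intensity per probe set and array, and the submitters' processing notes name MAS5. Neither its version nor its scaling target is stated there. Depth does not apply to arrays, and their number limits the precision. Every one of the 8 columns entered, and 64 control probe sets were left out. Probe sets were named from the platform annotation, and all 37 members matched the RefSeq table (TAIR10.1). Protein and promoter sequences were not used here. Intensities were transformed as log2(value + 16) and a linear model was run in limma 3.58.1 under R 4.3.3 (lmFit and eBayes with an intensity trend, 1 mean per population, 5 residual degrees of freedom plus 3.66 from the moderation). P-values were adjusted by Benjamini-Hochberg over all probe sets within a pair. The fit was tested on simulated data, with changes added only to probe sets above the median level. That test does not cover changes in dim genes, and its outcome is not given here. All 37 members are accounted for. Those enriched in a population, and the 9 others called in a pair, which come next by the F test, are given with their value on every array, and the rest by range. The text groups them by pattern and family. Relatives are counted by list. Figures used matplotlib 3.10.9 under Python 3.11.15.

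The labels call arrays of a population biological replicates and do not say whether they came from separate plantings. Alternatives were other pseudocounts (1 and 64), 4 scalings, a filter on dim probe sets, no trend, a fit of the compared populations alone, the replicate number as a block and leaving out each array. The members, lists and rules were chosen with earlier results of these data known.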

Additional observations from a re-analysis of the deposited data

How the results depend on the processing

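Of 111 values (37 genes in 3 pairs), 49 passed, and 32 of these passed under every alternative run, up to 18 each. The other 17 lost the call under at least 1, most often without phloem replicate 2 (11 values) or replicate 1 (9). Of 62 values that did not pass, 29 passed under some alternative. The calls of the main fit stand beside the shares of all probe sets, pair by pair, in the Results. How many of all probe sets kept, lost or gained a call is not given here. Median centring gave 18 genes higher in xylem than in cortex (34.6% of all probe sets) and, for xylem minus phloem, 15 higher (40.9%) and 7 lower (16.5%). It left 2 genes enriched in phloem. Quantile normalization gave 8 lower in xylem than in phloem (20.2% of all probe sets, against 28.5% in the main fit). Spike-in scaling gave 11 lower in xylem than in cortex (57.3%, against 29.1%). With bright probe sets only, 12 of the 37 genes were tested and all 12 passed the F test. The filter takes the mean over all arrays, so a gene can pass it through the 1 population where it is high. Passing the F test after this filter is therefore no result about these genes, and the shares of all bright probe sets are not given here. Of the 12 genes, 6 were higher in phloem than in cortex, 4 were lower in xylem than in phloem and 1 was enriched in phloem. These counts are out of 12 and do not compare directly with those out of 37. A pseudocount of 64 left 2 enriched in phloem. The shares of all probe sets enriched under median centring or this pseudocount are not given here. These enrichment counts therefore cannot be told apart from a change over the whole array. The sign of scpl29 for xylem minus cortex turned under spike-in scaling (-0.038), that of scpl44 for xylem minus phloem under median centring (0.071), and SBT3.3, below 16 everywhere, came to 0.42 in both xylem pairs under median centring. The cause of these changes was not tested.

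Leaving out 1 array gave 8 to 9 genes higher and 5 lower for xylem minus cortex, 7 to 13 higher and 3 to 5 lower for phloem minus cortex, 6 to 9 higher and 10 to 12 lower for xylem minus phloem, 18 to 21 passing the F test, and 5 to 6, 2 to 5 and 2 to 4 enriched in xylem, phloem and cortex. The low value in phloem came without phloem replicate 2, and those in cortex without phloem replicate 1 and without cortex replicate 1. Deviations from the population mean correlated at r from -0.10 to 0.15 between same-numbered arrays and from -0.16 to 0.19 between others. The 2 phloem arrays deviate as mirror images, and each population has few arrays, so this check cannot settle whether the numbers are pairs. They were not taken as pairs in the main fit. With the replicate block 8 genes were higher and 5 lower for xylem minus cortex, 10 and 4 for phloem minus cortex and 7 and 11 for xylem minus phloem. The shares of all probe sets called without 1 array or with the block are not given here. A change in these counts therefore cannot be told apart from a change over the whole array. Over all probe sets the median xylem minus cortex value moved from -0.14 as deposited to 0.04, 0.29, -0.76 and -0.03 after quantile, median, spike-in and trimmed-mean scaling. For phloem minus cortex it moved from -0.03 to -0.08, -0.20, -0.41 and 0.03, and for xylem minus phloem from -0.15 to 0.08, 0.46, -0.33 and -0.10. Higher calls made up 61.5% of the calls among the 37 genes for xylem minus cortex without rescaling, 78.3% when arrays were centred on their medians and 35.3% with spike-in scaling, against 31.7%, 63.8% and 9.79% of the calls over all probe sets. For phloem minus cortex they made up 75.0%, and 60.0% after spike-in scaling, against 45.3% and 19.2% over all, and for xylem minus phloem 35.0%, 50.0% after quantile normalization and 68.2% after median centring, against 32.8%, 52.1% and 71.2% over all. Signal near 16 limits what can be said of the 15 genes that passed in no pair.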
